A study of Ophiorrhiza pumila with 6 samples.

Results

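*OpERF1*, an AP2/ERF transcription factor gene of *Ophiorrhiza pumila*, was silenced by RNA interference (RNAi) in hairy roots, and the transcripts of the 2 silenced lines (ERF1i-7 and ERF1i-19) were set against those of 2 control lines (GUSi-9 and GUSi-10). These are 4 of the 6 libraries of the series, and the 2 others, from roots with a construct against *OpERF2* (ERF2i), entered the fit to share its estimate of the spread. The transcripts compared were the plant contigs of a *de novo* assembly. Of 59855 contigs, 28 annotated to Agrobacterium, its T-DNA or vector markers were left out, and 33301 of the remaining 59827 held enough reads to be tested. All roots were 3 weeks old, had been induced with *Agrobacterium rhizogenes* carrying pRi15834, and carried the RNAi binary vector pGWB80 with hygromycin and kanamycin resistance, in which the Cauliflower mosaic virus 35S promoter drives the hairpin. The GUSi vector is directed at the β-glucuronidase gene of *Escherichia coli*, which plants lack, and the ERF1i vector a stretch of *OpERF1*. Each line is 1 clone from 1 transformation event with 1 library, and the authors had picked lines with low target transcript in qRT-PCR. The p-values below therefore measure the spread between these few lines and hold no error for a single line.

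Group VII ERF proteins, the kind to which OpERF1 belongs, are known from Arabidopsis, where oxygen marks their N-terminus for degradation and they switch on low-oxygen genes when it is scarce. RNAi works through a hairpin RNA that is cut into small RNAs, which guide the cleavage of matching transcripts. Hairy roots grow from cells that received the T-DNA of a root-inducing plasmid, whose left part carries the *rol* genes and whose right part carries opine and auxin synthesis genes. Those of *O. pumila* make the monoterpenoid indole alkaloid camptothecin from secologanin, an iridoid built from plastid isoprenoid units, and tryptamine. The primers by which the authors measured *OpERF1* in qRT-PCR are shown because the lines were picked with them.
OpERF1 forward: caagaggagacagccgtagg
OpERF1 reverse: tacagaggcgttgtggagtg

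The targeted gene was low in both ERF1i lines. The *OpERF1* contig (c15284_g1_i1) held 3161 and 2099 counts in GUSi-9 and GUSi-10, 53 in ERF1i-7 and 276 in ERF1i-19. As CPM (edgeR's depth-scaled level, each count relative to the library total times its TMM factor; GUSi-9 is always given before GUSi-10 and ERF1i-7 before ERF1i-19), these were 227 and 149 CPM in GUSi and 4.04 and 21.9 CPM in ERF1i. The groups did not overlap, and ERF1i-7 was the lower of the silenced lines, below ERF1i-19 by a log2 of 2.44 (SE 0.37), which did not pass as a difference between lines (edgeR adjusted p = 0.0606). Against GUSi the contig fell by a log2 of 3.86 (SE 0.66, adjusted p = 0.0313 in edgeR's quasi-likelihood test with Benjamini-Hochberg adjustment, as for every p below). The call was kept without ERF1i-7 or ERF1i-19 and was lost without GUSi-9 (edgeR adjusted p = 0.116), GUSi-10 (edgeR adjusted p = 0.0782) or either ERF2i library (0.105 and 0.106), and on FPKM with limma-trend (0.0559). With 1 ERF1i line left, the difference between the ERF1i lines does not enter the spread. A call kept without an ERF1i line, here and below, is therefore no test of that difference. Whether reads of the hairpin fall on the *OpERF1* contig was not tested. The *OpERF2* contig (c17706_g2_i1), a group IX ERF, held 4.53 and 2.49 CPM in GUSi and 3.05 and 8.66 CPM in ERF1i, with overlapping groups and a log2 difference of 0.73 (SE 0.68, edgeR adjusted p = 0.6).

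Across plant contigs, 885 were higher (2.66% of those tested) and 461 lower (1.38%) in ERF1i at an adjusted p under 0.05, from 1130 assembly genes. The counts of each list below are to be read against these shares, and a list near them gives no result about its members as a set. All 1346 were called with both ERF1i libraries on the same side of both GUSi libraries, and 1031 had a description that names a kind of protein. Groups were also separated in contigs that were not called, such as several of the pathway contigs described below. Here and below, groups that do not overlap are therefore no evidence beyond the test itself. The median log2 difference was 1.24 among the higher contigs and −1.06 among the lower ones, against 0.00 over all tested, and 582 and 247 of them differed by a log2 of at least 1. Many of the rises started from almost nothing: 140 of the 885 had a mean under 1 CPM in GUSi, and 12 had no count there. Of the lower contigs, 38 had a mean under 1 CPM in ERF1i. The count filter passes a contig that is read in 1 group alone. One read only in ERF1i could be called higher but not lower, and one read only in GUSi lower but not higher. In lists below that hold such contigs, the filter therefore sets part of the share and direction of the calls. Calls were more often upward with TMM scaling (65.8% of them) than without it (53.8%, 713 higher and 613 lower), where the median of all contigs moved to −0.07, or on FPKM (60.1%, median −0.06). In the plot of difference against level, the rises reached both very low and high levels.

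**Figure D1:**
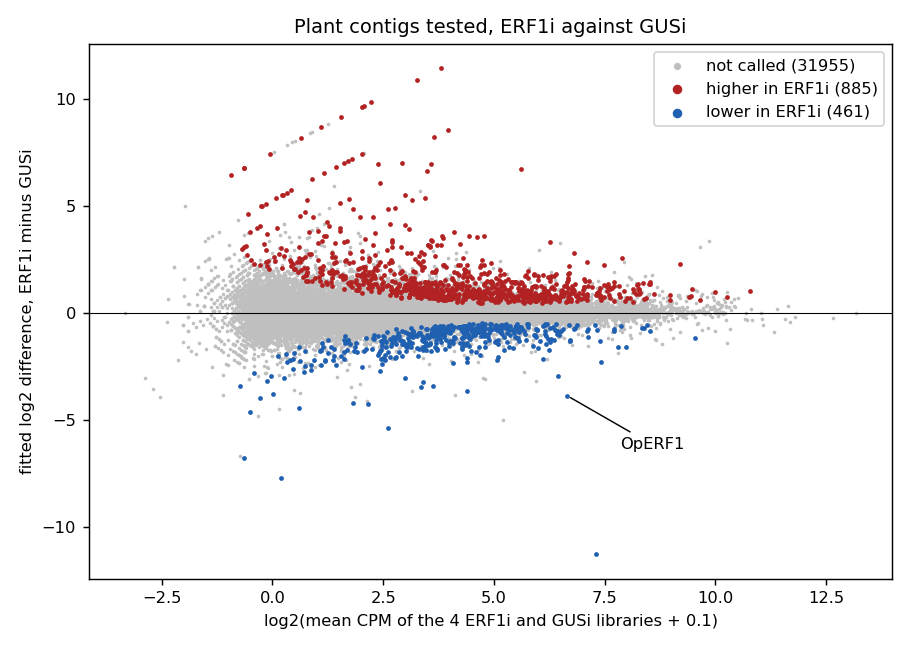
Fitted log2 difference of ERF1i minus GUSi (y axis) against the log2 of the mean CPM of the 4 libraries plus 0.1 (x axis) for each plant contig tested. The 885 higher contigs are red, the 461 lower ones blue and the others grey, *OpERF1* is marked among the falls, and the stripes of rises at the top left are contigs with 0 to 3 counts in GUSi, whose fitted difference is no bound.

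The libraries held 11517610 to 13199946 expected counts. The groups of each called contig did not overlap, so leaving out 1 library could not turn its direction. With 1 line left in a group, the difference between its 2 lines no longer enters the spread. Leaving out 1 library kept the direction of each of the 1346 calls, but far fewer passed the test: 56 passed when GUSi-9 was dropped, 164 when GUSi-10 was, 1184 and 880 when ERF1i-7 or ERF1i-19 was, and 29 or 31 when an ERF2i library was. Among contigs annotated to the T-DNA or vector markers, the 8 with at most 6 counts over ERF1i were grouped as the right T-DNA. Their low ERF1i sum is thus part of the choice. By annotation they are opine and auxin synthesis genes and *rolB*(TR) of *A. rhizogenes*. They summed to 12801 and 15416 counts in GUSi and to 8 and 4 in ERF1i, while *rolB*, *rolC* and *orf13* contigs were read in all 4 libraries. The 2 ERF1i clones differ from the GUSi clones in the T-DNA they express as well as in their construct, and for every difference reported here these cannot be told apart. Among the contigs counted as plant, 2 with no annotation, c23466_g1_i1 (325 and 303 CPM in GUSi, 0 in ERF1i-7 and 0.238 in ERF1i-19) and c33356_g2_i2 (12.8 and 10.6 CPM in GUSi and 0.305 and 0.238 CPM in ERF1i), both named here after their values were seen, were read in GUSi and near 0 in ERF1i, like the right T-DNA contigs. In the ERF2i libraries the right T-DNA contigs summed to 31412 and 15674 counts. There c23466_g1_i1 held 448 and 239 CPM, and c33356_g2_i2 held 3.97 and 5.45 CPM, below GUSi. Whether these 2 contigs belong to the T-DNA was not tested. Root marker terms (root hair defective, SHORT-ROOT, Casparian strip and SOMBRERO) summed to 469 and 497 CPM in GUSi and 522 and 437 CPM in ERF1i, with 0 of 25 tested contigs called in either direction. Most of this was root hair defective, with 365 and 346 CPM in GUSi and 380 and 376 CPM in ERF1i. SHORT-ROOT (46.4 and 45.6 CPM in GUSi, 39.1 and 25.7 CPM in ERF1i) and SOMBRERO (4.38 and 2.35 CPM in GUSi, 1.45 and 0.397 CPM in ERF1i) were lower in both ERF1i lines. Casparian strip terms overlapped (52.5 and 104 CPM in GUSi, 102 and 34.6 CPM in ERF1i). SCARECROW contigs were not tested and no contig was annotated as PLETHORA. Shoot marker terms summed to 128 and 116 CPM in GUSi and 212 and 275 CPM in ERF1i, with 10 of 41 contigs higher and 0 lower. In bulk RNA, more cells of a type and more RNA per cell cannot be told apart.

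A small set of calls, 17 contigs of which 12 were higher and 5 lower, remained whichever of the 6 libraries was left out. The 5 lower ones include c23466_g1_i1 and c33356_g2_i2, the unannotated contigs that, like the right T-DNA, were read in GUSi and near 0 in ERF1i. A CYP94A1-like P450 (c42193_g1_i1), a family known in vetch for hydroxylating fatty acids, held 0.359 and 0.427 CPM in GUSi and 9.84 and 13.5 CPM in ERF1i (log2 difference 4.86, SE 0.30, edgeR adjusted p = 0.00523). A further P450-like contig (c38646_g1_i1) held 0.287 and 0.498 CPM in GUSi and 9.07 and 8.90 CPM in ERF1i (log2 difference 4.48, SE 0.30, edgeR adjusted p = 0.00523), and a monoglyceride lipase-like contig (c23147_g1_i2), of enzymes that release fatty acids from monoglycerides, held 1.15 and 0.569 CPM in GUSi and 14.3 and 15.5 CPM in ERF1i (log2 difference 4.10, SE 0.26, edgeR adjusted p = 0.00523). In each of these the ERF1i lines lay within a narrow range of each other and more than 10-fold above either GUSi line. The MLO-like contig c31473_g1_i4, of a membrane protein family that sets powdery mildew susceptibility in barley, held 10.1 and 10.03 CPM in GUSi and 35.8 and 32.1 CPM in ERF1i (3.37-fold higher), and 2 other contigs of the same assembly gene also remained. A UDP-glycosyltransferase 74B1-like contig (c25056_g1_i2) held 2.80 and 3.34 CPM in GUSi and 17.1 and 15.3 CPM in ERF1i (5.26-fold higher), and in Arabidopsis this enzyme makes glucosinolates. A contig annotated as 60S ribosomal protein (c32349_g2_i1) held 25.4 and 27.4 CPM in GUSi and 86.6 and 100 CPM in ERF1i, and a chlorophyll b reductase contig (c28199_g1_i2), of the enzyme that starts chlorophyll b breakdown, held 11.1 and 10.9 CPM in GUSi and 32.03 and 29.3 CPM in ERF1i. Among the falls were an auxin-induced 10A5-like contig of the SAUR family (c40345_g1_i1), with 88.2 and 87.1 CPM in GUSi and 27.9 and 32.2 CPM in ERF1i (2.92-fold lower), and a CENTRORADIALIS-like contig (c8984_g1_i1), of a family that keeps shoot meristems indeterminate, with 18.04 and 26.5 CPM in GUSi and 1.91 and 2.22 CPM in ERF1i (10.8-fold lower). The highest adjusted p of each of these 9 contigs over the 6 leave-outs lay between 0.0379 (c42193_g1_i1) and 0.0489 (c40345_g1_i1) in edgeR. Values under 0.05 were the condition for this set, so they are no further evidence that the calls are stable.

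Genes of the shoot epidermis and of leaf polarity stood among the steepest rises. Protodermal factor 1 (c27846_g1_i1), a cell wall protein of the outermost cell layer in Arabidopsis, held counts of 0 in GUSi-9, 0 in GUSi-10, 138 in ERF1i-7 and 567 in ERF1i-19, at least 244-fold higher against 3 counts over the GUSi libraries. Protodermal factor 2 (c29051_g1_i1), an HD-ZIP IV regulator of epidermal identity, held counts of 1 in GUSi-9, 1 in GUSi-10, 108 in ERF1i-7 and 517 in ERF1i-19, a ratio of 324 with a 95% counting interval of 89.4 to 2680. YABBY 4-like (c42908_g1_i1) and YABBY 1-like (c494_g1_i1) contigs, of factors that mark the lower side of lateral organs, held counts of 0 in GUSi-9, 0 in GUSi-10, 36 in ERF1i-7 and 172 in ERF1i-19 and counts of 0 in GUSi-9, 0 in GUSi-10, 27 in ERF1i-7 and 117 in ERF1i-19, at least 71.9-fold and 49.8-fold higher. Every one of these contigs was at 0 or 1 count in each GUSi library and at 27 or more in each ERF1i library, with ERF1i-19 above ERF1i-7. A contig annotated only as zinc finger (c15721_g1_i1) held counts of 2 in GUSi-9, 0 in GUSi-10, 176 in ERF1i-7 and 604 in ERF1i-19 (ratio 405, interval 112 to 3350). RD22-like contigs, of BURP-domain proteins induced by drought in Arabidopsis, held counts of 0 in GUSi-9, 1 in GUSi-10, 36 in ERF1i-7 and 165 in ERF1i-19 (c26161_g1_i1, ratio 209, 37.0 to 8280) and counts of 0 in GUSi-9, 2 in GUSi-10, 40 in ERF1i-7 and 218 in ERF1i-19 (c24359_g1_i1, ratio 134, 36.7 to 1110). An epoxide hydrolase 2 contig (c41983_g1_i1), of enzymes that open fatty acid epoxides, held 0.287 and 0.0710 CPM in GUSi and 7.47 and 39.6 CPM in ERF1i (log2 difference 6.96, SE 1.12, edgeR adjusted p = 0.0272). An MLP-like contig (c26256_g1_i1), of the major latex protein family, held 0.144 and 0.284 CPM in GUSi and 6.63 and 37.6 CPM in ERF1i (log2 difference 6.62, SE 1.10, edgeR adjusted p = 0.03). Of these 9 calls, 0 remained without GUSi-9 (highest edgeR adjusted p = 0.17), 0 with GUSi-10 dropped (0.146) and 0 without either ERF2i library (0.125), while all 9 remained without ERF1i-7 or ERF1i-19.

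Water channels were also among the rises, with 2 higher and 0 lower of 24 tested aquaporin contigs (29 in the assembly). An X intrinsic protein contig (c33349_g4_i1) held counts of 1 in GUSi-9, 0 in GUSi-10, 33 in ERF1i-7 and 98 in ERF1i-19 (ratio 136, interval 24.0 to 5410), and a tonoplast intrinsic protein contig (c25659_g1_i1), the vacuolar form, held 245 and 185 CPM in GUSi and 406 and 424 CPM in ERF1i (log2 difference 0.95, SE 0.15, edgeR adjusted p = 0.0282). The protodermal factor and HD-ZIP IV list had 2 higher and 0 lower of 6 tested contigs (17 in the assembly), and the 6 tested contigs of the HD-ZIP IV marker term, 0 of them called, summed to 174 and 206 CPM in GUSi and 292 and 234 CPM in ERF1i. The YABBY and leaf polarity list had 2 higher and 0 lower of 9, with a median log2 of 0.06, and the RD22 and BURP list 2 higher and 0 lower of 17, with a median of 0.44. Calls that remained numbered 0 of 2 without GUSi-9 (highest edgeR adjusted p = 0.139), 0 with GUSi-10 dropped (0.144) and 0 without either ERF2i library (0.0923 and 0.0927), while both remained without ERF1i-7 or ERF1i-19. The plot of rises shows the same contigs by library, with the ERF2i libraries left out. In those, protodermal factor 1 was at 0 and 0.376 CPM and protodermal factor 2 at 0.283 and 0.282 CPM. Other contigs of the plot were above both GUSi lines in the ERF2i libraries too. Lipoxygenase (c26282_g1_i3) was at 63.4 and 61.0 CPM, OPR2-like (c32653_g1_i2) at 231.2 and 229.5 CPM and ABCG36-like (c29528_g1_i1) at 2444 and 2148 CPM.

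Photosynthesis contigs were called in 1 direction: 10 of 80 tested (12.5%) were higher and 0 lower, with a median log2 of 0.64 against 0.00 over all plant contigs, and 100 others were too little read to be tested. A contig read mainly in ERF1i can enter the test through those libraries, and it can then hardly be called lower. How many of the 80 entered in this way was not counted, so the filter may in part set the direction and share of these calls. Chlorophyll a/b binding proteins, which carry the antenna pigments of the photosystems, made up 7 of the 10. As examples, c10086_g1_i1 held 0.216 and 0.284 CPM in GUSi and 3.74 and 3.57 CPM in ERF1i (log2 difference 3.82, SE 0.45, edgeR adjusted p = 0.0132), c21505_g1_i1 held 0.287 and 0.213 CPM in GUSi and 1.60 and 1.91 CPM in ERF1i (6.77-fold higher), c28084_g1_i1 held 3.88 and 3.41 CPM in GUSi and 10.4 and 12.2 CPM in ERF1i (3.08-fold higher), and the CP26 contig c21467_g2_i1 held 0.575 and 0.995 CPM in GUSi and 2.75 and 3.89 CPM in ERF1i (4.18-fold higher). Both ERF1i lines lay above both GUSi lines in each. Summed over 17 tested contigs, chlorophyll a/b binding proteins came to 24.4 and 26.1 CPM in GUSi and 68.6 and 76.7 CPM in ERF1i. The single tested contig of the small subunit of Rubisco, the carbon-fixing enzyme, held 1.15 and 2.28 CPM in GUSi and 3.97 and 5.72 CPM in ERF1i and was not called. Without GUSi-9, 0 of these 4 calls remained (highest edgeR adjusted p = 0.168), 0 with GUSi-10 dropped (0.16), 2 without ERF1i-19 (0.073) and 0 without either ERF2i library (0.101 and 0.102), while all 4 remained without ERF1i-7. ERF1i-19 was above ERF1i-7 in 3 of these 4 contigs.

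Lipid and cuticle lists had the largest shares of rises among the lists of 24 or more tested contigs. Some of these rises, such as c6332_g1_i1, c27327_g1_i1, c44702_g1_i1 and c22271_g3_i1, passed the count filter only through ERF1i. Such contigs could be called higher but not lower, so the ranking of the lists by share is no evidence beyond the single calls. Of 72 tested contigs of the cuticle, wax and lipid transfer list (101 in the assembly), 11 were higher (15.3%) and 1 lower, and of 56 tested GDSL esterase/lipases (101 in the assembly), 8 were higher (14.3%) and 0 lower, with a median log2 of 0.13 in both lists. The higher contigs came from 10 and 6 assembly genes. GDSL enzymes act on ester bonds, in tomato also in building cutin. The At1g71691-like GDSL contig (c6332_g1_i1) held counts of 0 in GUSi-9, 0 in GUSi-10, 47 in ERF1i-7 and 153 in ERF1i-19, at least 69.2-fold higher, c29053_g1_i2 held 1.08 and 1.21 CPM in GUSi and 6.02 and 17.2 CPM in ERF1i (log2 difference 3.33, SE 0.56, edgeR adjusted p = 0.0311), and c32923_g2_i1 held 10.99 and 9.24 CPM in GUSi and 21.96 and 20.5 CPM in ERF1i (2.10-fold higher). Lipid transfer proteins, small secreted carriers of lipids, gave c27327_g1_i1 with counts of 1 in GUSi-9, 0 in GUSi-10, 52 in ERF1i-7 and 108 in ERF1i-19 (ratio 166, interval 29.4 to 6600), and the DIR1-like contig c44702_g1_i1 with counts of 1 in GUSi-9, 0 in GUSi-10, 41 in ERF1i-7 and 68 in ERF1i-19 (ratio 113, interval 19.9 to 4510). In all of these both GUSi lines lay below both ERF1i lines, and those with at most 1 GUSi count were higher in ERF1i-19 than in ERF1i-7. Enzymes of cutin and wax precursors rose as well. The 3-ketoacyl-CoA synthase 6-like contig (c21790_g1_i1), which in Arabidopsis elongates very long chain fatty acids for wax, held 43.3 and 50.4 CPM in GUSi and 83.7 and 80.9 CPM in ERF1i (log2 difference 0.81, SE 0.11, edgeR adjusted p = 0.0193). A glycerol-3-phosphate acyltransferase contig (c22271_g3_i1), an enzyme that links acyl chains to glycerol, held counts of 0 in GUSi-9, 1 in GUSi-10, 22 in ERF1i-7 and 40 in ERF1i-19 (ratio 64.3, interval 11.1 to 2580). A CYP77A2-like contig (c42426_g1_i1), of a P450 family with fatty acid oxidation in Arabidopsis, held 0.359 and 0.498 CPM in GUSi and 4.19 and 21.9 CPM in ERF1i (29.7-fold higher), and a further CYP94A1-like contig (c41094_g1_i1) held counts of 1 in GUSi-9, 2 in GUSi-10, 34 in ERF1i-7 and 44 in ERF1i-19 (ratio 27.0, interval 8.90 to 134). Of these 9 calls, 0 remained without GUSi-9 (highest edgeR adjusted p = 0.183), 0 with GUSi-10 dropped (0.168) and 0 without either ERF2i library (0.113 and 0.114), while all 9 remained without ERF1i-7 or ERF1i-19. In DESeq2, c6332_g1_i1 had an adjusted p of 0.384. The suberin and Casparian strip list, of root barrier genes, had 3 higher and 4 lower of 58 tested contigs and a median log2 of 0.00.

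Regulators of meristems and flowering moved in both directions. A KN1-like contig (c23142_g1_i1), of the KNOX homeobox family that maintains shoot meristems, held 0.216 and 0.213 CPM in GUSi and 3.20 and 10.1 CPM in ERF1i (log2 difference 4.89, SE 0.82, edgeR adjusted p = 0.0303), while a POX-family contig (c29047_g2_i1), whose BELL proteins pair with KNOX proteins, fell, with 39.7 and 36.9 CPM in GUSi and 22.6 and 21.9 CPM in ERF1i (1.72-fold lower). A BEL1-like homeodomain 6 contig (c28982_g1_i2) held 26.7 and 27.02 CPM in GUSi and 37.7 and 41.9 CPM in ERF1i (1.48-fold higher). The LOB domain 41-like contig (c27829_g1_i1) fell, with 324 and 345 CPM in GUSi and 137 and 85.9 CPM in ERF1i (log2 difference −1.59, SE 0.21, edgeR adjusted p = 0.0191), and ERF1i-19 was the lowest library. Its Arabidopsis counterpart LBD41 is one of the core low-oxygen response genes, and its level in the ERF2i libraries was 361 and 324 CPM. Both members of the TERMINAL FLOWER 1 kind were lower: besides the CENTRORADIALIS-like contig above (c8984_g1_i1, 18.04 and 26.5 CPM in GUSi and 1.91 and 2.22 CPM in ERF1i), a TFL1-like contig (c45764_g1_i1) held 19.7 and 57.6 CPM in GUSi and 2.97 and 3.26 CPM in ERF1i (log2 difference −3.63, SE 0.70, edgeR adjusted p = 0.0415), with GUSi-10 far above GUSi-9. A MADS box contig (c28634_g1_i4) held 23 and 35.2 CPM in GUSi and 14.3 and 12.5 CPM in ERF1i (2.18-fold lower), and a CONSTANS-like 4 contig (c23974_g1_i1), of the B-box family of light and flowering regulators, held 24.4 and 18.6 CPM in GUSi and 35.9 and 49.7 CPM in ERF1i (1.99-fold higher). The flowering and MADS-box list had 1 higher and 3 lower of 51 tested contigs, and the meristem homeobox and boundary list 3 higher and 2 lower of 57. Calls that remained numbered 2 of 8 without GUSi-9 (highest edgeR adjusted p = 0.166), 1 with GUSi-10 dropped (0.17), 7 without ERF1i-7 (0.0568), 4 without ERF1i-19 (0.0842) and 1 without either ERF2i library (0.119 and 0.12).

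Other transcription factors fell more often than they rose in several families. Of 135 tested bHLH contigs, 4 were higher and 12 (8.89%) lower, of 371 zinc finger contigs 4 and 14 (3.77%), of 131 HD-ZIP and other homeobox contigs 4 and 9 (6.87%), while AP2/ERF contigs had 6 higher and 5 lower of 101, MYB 6 and 3 of 121, NAC 3 and 1 of 50, GRAS 3 and 3 of 57 and WRKY 3 and 3 of 55. Contigs of 1 assembly gene are counted apart here: the 12 lower bHLH contigs came from 8 genes, the 9 lower homeobox contigs from 7 and the 3 higher GRAS contigs from 1. Median log2 differences of these 8 families lay between −0.20 and −0.09. Among AP2/ERF factors, ERF12 (c23769_g1_i1), among the most read contigs that fell, held 999 and 1070.4 CPM in GUSi and 461 and 449 CPM in ERF1i (log2 difference −1.18, SE 0.14, edgeR adjusted p = 0.0128), and an ERF 1-like contig (c23187_g1_i1) held 418 and 421 CPM in GUSi and 286 and 288 CPM in ERF1i (1.46-fold lower). In the opposite direction, an ERF061-like contig (c27621_g1_i1) held 11.4 and 13.9 CPM in GUSi and 38.1 and 50.99 CPM in ERF1i (log2 difference 1.81, SE 0.18, edgeR adjusted p = 0.0099) and an AP2 2c contig (c31235_g1_i4) held 6.83 and 6.26 CPM in GUSi and 16.3 and 18.03 CPM in ERF1i (2.62-fold higher). The steepest fall of a named transcription factor was that of a PLATZ zinc-binding factor (c9319_g1_i1), with 4.60 and 8.39 CPM in GUSi and 0.305 and 0.397 CPM in ERF1i (log2 difference −4.17, SE 0.47, edgeR adjusted p = 0.0125), and a DOF zinc finger contig (c34178_g1_i1) held 50.95 and 52.7 CPM in GUSi and 27.99 and 25.9 CPM in ERF1i (1.92-fold lower). The bHLH148-like (c39533_g1_i1) and bHLH147-like (c19869_g1_i1) contigs held 7.19 and 9.03 CPM in GUSi and 2.21 and 2.30 CPM in ERF1i, and 33.9 and 26.7 CPM in GUSi and 13.6 and 12.8 CPM in ERF1i. Both were lower in both ERF1i lines, as were 2 HD-ZIP contigs. Homeodomain leucine-zipper 1 (c30276_g1_i3) held 17.3 and 16.6 CPM in GUSi and 6.71 and 5.72 CPM in ERF1i (2.73-fold lower), and the ATHB-6-like contig (c21347_g1_i1), whose Arabidopsis counterpart restrains abscisic acid responses, held 499.9 and 440.4 CPM in GUSi and 254 and 267 CPM in ERF1i (1.81-fold lower). Called NAC contigs included rises: the NAC072-like contig (c16834_g1_i1), a drought and senescence regulator in Arabidopsis, held 31.04 and 45.3 CPM in GUSi and 111 and 141 CPM in ERF1i (log2 difference 1.72, SE 0.20, edgeR adjusted p = 0.0128), and a membrane-bound NAC 1 contig (c268_g1_i1) held 140.4 and 202 CPM in GUSi and 490.0 and 392 CPM in ERF1i (2.57-fold higher). A MYB1R1 contig (c25641_g1_i1) held 16.02 and 15.9 CPM in GUSi and 34.8 and 33.1 CPM in ERF1i, and 2 WRKY contigs went opposite ways, WRKY1b (c17606_g1_i1) with 236 and 284 CPM in GUSi and 432 and 422 CPM in ERF1i and WRKY 11-like (c24183_g1_i1) with 286 and 277 CPM in GUSi and 193 and 176 CPM in ERF1i. Without GUSi-9, 1 of these 15 calls remained (highest edgeR adjusted p = 0.172), 7 with GUSi-10 dropped (0.152), 12 without ERF1i-19 (0.0688) and 0 without either ERF2i library (0.106), while all 15 remained without ERF1i-7.

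**Figure D2:**
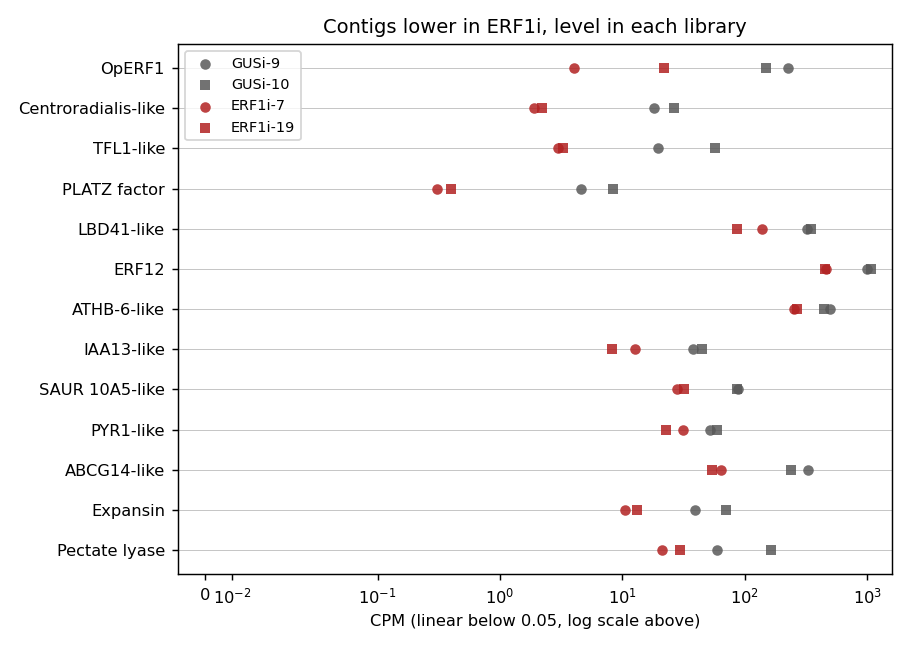
CPM in each library (x axis, linear below 0.05 and logarithmic above) for 13 contigs that were lower in ERF1i, with GUSi in grey and ERF1i in red and 1 symbol per line. The ERF1i lines lie left of the GUSi lines in every row, ERF1i-7 is the lowest for *OpERF1*, and the GUSi lines are far apart for the TFL1-like and pectate lyase contigs.

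Genes of the low-oxygen response, the process for which group VII ERFs are known, were read from a list of fermentation, hemoglobin, ethylene-forming and related genes. Of 47 tested contigs on that list (51 in the assembly), 0 were higher and 1 lower (2.13%, against 1.38% over all plant contigs), and its median log2 was −0.13. The LBD41-like contig described above (c27829_g1_i1), which fell by a log2 of 1.59, is not on this list. The 1 lower contig was a 1-aminocyclopropane-1-carboxylate oxidase 1-like enzyme (c18801_g1_i1), which makes ethylene, with 43.5 and 46.8 CPM in GUSi and 21.3 and 28.8 CPM in ERF1i (log2 difference −0.85, SE 0.16, edgeR adjusted p = 0.0388). Of 8 tested contigs annotated to group VII ERFs or oxygen sensing, apart from *OpERF1*, 0 were called, and the median was 0.19. Among the most read of them, an AP2 domain contig (c8775_g1_i1) held 18.5 and 14.2 CPM in GUSi and 23.5 and 52.3 CPM in ERF1i (log2 difference 1.21, SE 0.35, edgeR adjusted p = 0.113), with ERF1i-19 the highest library. A hypoxia-responsive family contig (c30534_g1_i2) held 63.5 and 67.5 CPM in GUSi and 74.1 and 93.1 CPM in ERF1i (edgeR adjusted p = 0.204) and 488 and 470.1 CPM in the ERF2i libraries. Glycolysis had 3 higher and 0 lower of 72 tested contigs, all 3 from 1 assembly gene of hexokinase 6, the entry enzyme for glucose, of which c31223_g1_i2 held 10.9 and 8.25 CPM in GUSi and 23.9 and 26.6 CPM in ERF1i (log2 difference 1.40, SE 0.16, edgeR adjusted p = 0.0128). Of these 2 calls, 0 remained without GUSi-9 (highest edgeR adjusted p = 0.132), 0 with GUSi-10 dropped (0.153) and 0 without either ERF2i library (0.105 and 0.106), while both remained without ERF1i-7 or ERF1i-19.

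Heat shock contigs were called in both directions, 8 higher (3.69%) and 6 lower (2.76%) of 217 tested, with a median log2 of −0.04. Over all plant contigs, 2.66% were higher and 1.38% lower. Small heat shock proteins, chaperones that hold unfolding proteins, included the steep falls. A class I contig (c20110_g1_i1) held 241 and 69.04 CPM in GUSi and 19.98 and 20.5 CPM in ERF1i (log2 difference −2.94, SE 0.53, edgeR adjusted p = 0.0358), and c24013_g2_i1 held 27.8 and 9.74 CPM in GUSi and 1.91 and 2.06 CPM in ERF1i (log2 difference −3.23, SE 0.53, edgeR adjusted p = 0.0287). In both, GUSi-9 was well above GUSi-10, and the ERF2i libraries held 825 and 679 CPM of the class I contig. An HSP70 contig (c47411_g1_i1), a chaperone of the ATP-driven kind, rose, with 491 and 502 CPM in GUSi and 902 and 795 CPM in ERF1i (1.71-fold higher). Calls that remained numbered 2 of 3 without GUSi-9 (highest edgeR adjusted p = 0.162), 2 with GUSi-10 dropped (0.144), 1 without ERF1i-19 (0.0687) and 0 without either ERF2i library (0.11), while all 3 remained without ERF1i-7.

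For auxin and abscisic acid, more contigs fell than rose. Of 142 tested auxin contigs, 2 were higher and 7 lower (4.93%), with a median log2 of −0.17. SAUR-type 10A5-like contigs, rapid auxin response genes, were c40345_g1_i1 with 88.2 and 87.1 CPM in GUSi and 27.9 and 32.2 CPM in ERF1i and c25636_g1_i1 with 9.77 and 10.03 CPM in GUSi and 2.21 and 2.62 CPM in ERF1i (4.09-fold lower). The IAA13-like contig (c27976_g1_i1), of the repressors that auxin removes, held 37.6 and 44.4 CPM in GUSi and 12.7 and 8.18 CPM in ERF1i (log2 difference −1.97, SE 0.23, edgeR adjusted p = 0.0128), with both ERF1i lines far below GUSi. A PCNT115 contig (c17708_g1_i1), an auxin-induced aldo-keto reductase in tobacco, held 19.2 and 16.6 CPM in GUSi and 34.1 and 32.9 CPM in ERF1i (1.87-fold higher). Of 29 tested abscisic acid contigs, 0 were higher and 5 lower (17.2%), from 3 assembly genes. Its receptors were PYL4-like (c33488_g3_i4) with 27.8 and 24.7 CPM in GUSi and 12.96 and 13.9 CPM in ERF1i, PYR1-like (c26108_g1_i1) with 52.3 and 58.9 CPM in GUSi and 31.6 and 22.6 CPM in ERF1i and PYL2-like (c36911_g1_i1) with 2.66 and 3.56 CPM in GUSi and 0.915 and 0.874 CPM in ERF1i. These are 1.95-fold, 2.05-fold and 3.45-fold lower, with no overlap between the groups. Gibberellin had 4 higher and 2 lower of 53 tested contigs. The ent-kaurenoic acid oxidase 1 contig (c18507_g1_i2), a step of gibberellin synthesis, held 0.503 and 0.853 CPM in GUSi and 7.02 and 11.2 CPM in ERF1i (log2 difference 3.72, SE 0.42, edgeR adjusted p = 0.0125), and a DELLA repressor contig (c29228_g1_i1) held 98.2 and 98.1 CPM in GUSi and 69.2 and 55.2 CPM in ERF1i (1.58-fold lower). Cytokinin had 1 higher and 2 lower of 55. A receptor kinase contig whose best hit is cytokinin-regulated kinase 1 of tobacco (c20496_g1_i1) held 185 and 197 CPM in GUSi and 92.5 and 84.5 CPM in ERF1i (2.16-fold lower), and a type-B response regulator ARR1-like contig (c18714_g1_i1) held 66.5 and 76.3 CPM in GUSi and 102 and 107 CPM in ERF1i (1.46-fold higher). Without GUSi-9, 1 of these 11 calls remained (highest edgeR adjusted p = 0.196), 2 with GUSi-10 dropped (0.152), 8 without ERF1i-19 (0.0812) and 1 without either ERF2i library (0.115 and 0.116), while all 11 remained without ERF1i-7.

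Jasmonate and oxylipin genes had 4 higher and 0 lower of 50 tested contigs, with a median log2 of 0.25, and the 4 calls come from 2 assembly genes. A lipoxygenase contig (c26282_g1_i3), of enzymes that add oxygen to polyunsaturated fatty acids, held 40.3 and 48.6 CPM in GUSi and 138 and 179.6 CPM in ERF1i (log2 difference 1.84, SE 0.16, edgeR adjusted p = 0.00913). Another called contig of its assembly gene (c26282_g1_i2, log2 difference 1.79) is described as a probable linoleate 9S-lipoxygenase 5-like, whereas the study's jasmonic acid list names the 13S type. A 12-oxophytodienoate reductase 2-like contig (c32653_g1_i2), of the reductase kind that in Arabidopsis is not the one of jasmonate synthesis, held 75.96 and 79.6 CPM in GUSi and 182 and 186 CPM in ERF1i (log2 difference 1.24, SE 0.10, edgeR adjusted p = 0.00783). In both, the ERF1i lines lay close together and more than 2-fold above GUSi. The 16 contigs that the study assigned to jasmonic acid biosynthesis gave 0 calls in either direction, with a median of 0.20 and 13 of 16 above 0. Of these, OPR3 (c5147_g1_i1), the peroxisomal reductase of the pathway, held 180.4 and 233 CPM in GUSi and 309 and 326 CPM in ERF1i (log2 difference 0.62, SE 0.14, edgeR adjusted p = 0.0628), lipoxygenase 2 (c30417_g1_i1) held 502 and 678 CPM in GUSi and 1279 and 785 CPM in ERF1i (log2 difference 0.81, SE 0.25, edgeR adjusted p = 0.13), and allene oxide synthase (c25608_g1_i1), its committed step, held 52.1 and 52.97 CPM in GUSi and 55.9 and 58.8 CPM in ERF1i (log2 difference 0.13, SE 0.10, edgeR adjusted p = 0.528). Of these 2 calls, 0 remained without GUSi-9 (highest edgeR adjusted p = 0.05) and 1 without either ERF2i library (0.0564), while both remained without GUSi-10, ERF1i-7 or ERF1i-19.

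Defence genes split by family. NBS-LRR resistance proteins, intracellular immune receptors, had 2 higher (0.599%) and 14 lower (4.19%) of 334 tested contigs, a median log2 of −0.25, and 88 of 334 above 0. Late blight resistance homologs were c30911_g1_i1 with 37.2 and 32.9 CPM in GUSi and 17.1 and 19.4 CPM in ERF1i (1.92-fold lower) and c33575_g1_i1 with 274 and 249.7 CPM in GUSi and 179 and 135 CPM in ERF1i (1.67-fold lower), while c28188_g1_i1 held 1.87 and 2.84 CPM in GUSi and 7.09 and 7.78 CPM in ERF1i (3.14-fold higher). Receptor-like kinases of the cell surface had 24 higher (4.45%) and 13 lower (2.41%) of 539. A FERONIA-like kinase (c33745_g3_i1), a sensor of cell wall state in Arabidopsis, held 10.5 and 9.74 CPM in GUSi and 26.9 and 24.2 CPM in ERF1i (2.53-fold higher), and a leucine-rich repeat kinase (c30083_g1_i1) held 56.3 and 69.4 CPM in GUSi and 26.7 and 29.6 CPM in ERF1i (2.23-fold lower). Pathogenesis-related and chitinase contigs had 7 higher and 5 lower of 107, and class III peroxidases, secreted wall enzymes, 6 and 2 of 69. The 6 higher peroxidase contigs came from 4 assembly genes, the 14 lower NBS-LRR contigs from 11 and the 24 higher receptor-like kinase contigs from 19. A chitinase-like contig (c27247_g1_i1) held 28.96 and 29.6 CPM in GUSi and 72.6 and 122 CPM in ERF1i (log2 difference 1.73, SE 0.23, edgeR adjusted p = 0.0176), and a thaumatin-like contig (c20740_g1_i1) held 32.05 and 50.3 CPM in GUSi and 15.02 and 12.8 CPM in ERF1i (2.96-fold lower). Peroxidase 4-like (c24663_g1_i2) held 3.02 and 2.49 CPM in GUSi and 15.6 and 15.9 CPM in ERF1i (log2 difference 2.51, SE 0.22, edgeR adjusted p = 0.00913) and peroxidase 64 (c31217_g1_i3) held 11.4 and 12.1 CPM in GUSi and 4.80 and 3.73 CPM in ERF1i (2.74-fold lower). Inhibitors of foreign enzymes also differed in both directions. The polygalacturonase inhibitor contig (c36555_g1_i1), which blocks fungal pectinases, held 179 and 168 CPM in GUSi and 410.3 and 439.7 CPM in ERF1i (log2 difference 1.30, SE 0.11, edgeR adjusted p = 0.00913), the type-2 proteinase inhibitor contig (c44727_g1_i1) held 38.2 and 35.6 CPM in GUSi and 97.5 and 244 CPM in ERF1i (4.63-fold higher), and the Kunitz trypsin inhibitor contig (c34027_g1_i1) held 96.2 and 85.2 CPM in GUSi and 55.5 and 45.4 CPM in ERF1i (1.80-fold lower). With the MLO-like contig above (c31473_g1_i4), these are 13 calls. Calls that remained numbered 3 of 13 without GUSi-9 (highest edgeR adjusted p = 0.191), 7 with GUSi-10 dropped (0.154), 11 without ERF1i-19 (0.0729) and 2 without either ERF2i library (0.126 and 0.127), while all 13 remained without ERF1i-7.

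ABC and MATE transporters, pumps for hormones and specialised metabolites, had 25 higher (8.36%) and 5 lower (1.67%) of 299 tested contigs (426 in the assembly), with a median log2 of 0.17. The higher contigs came from 16 assembly genes and the lower ones from 4. The ABCG36-like contig (c29528_g1_i1), one of the most read contigs called here, held 695 and 667 CPM in GUSi and 1416 and 1285 CPM in ERF1i (log2 difference 0.99, SE 0.14, edgeR adjusted p = 0.0207), and a pleiotropic drug resistance 3-like contig (c33584_g2_i2) held 27.7 and 29.2 CPM in GUSi and 72.3 and 57.3 CPM in ERF1i (2.28-fold higher). In the opposite direction, the ABCG14-like contig (c27353_g1_i1), which in Arabidopsis loads cytokinins for transport to the shoot, held 328 and 240.4 CPM in GUSi and 64.4 and 53.8 CPM in ERF1i (log2 difference −2.27, SE 0.18, edgeR adjusted p = 0.00783). Nitrate and ammonium contigs had 9 higher (8.74%) and 3 lower of 103. A peptide/nitrate transporter contig (c31781_g1_i1) held 4.31 and 5.12 CPM in GUSi and 11.5 and 13.98 CPM in ERF1i, an ammonium transporter contig (c32278_g1_i2) held 2.37 and 1.92 CPM in GUSi and 5.95 and 8.82 CPM in ERF1i, and the At1g52190-like transporter contig (c28873_g1_i1) held 18.1 and 18.8 CPM in GUSi and 11.7 and 10.5 CPM in ERF1i. The former pair were 2.70-fold and 3.43-fold higher and the last 1.66-fold lower, each without overlap. Phosphate starvation contigs had 5 higher and 3 lower of 55. The SPX domain 2-like contig (c26037_g1_i1), of the phosphate sensors, held 17.9 and 15.7 CPM in GUSi and 5.87 and 6.04 CPM in ERF1i (log2 difference −1.50, SE 0.15, edgeR adjusted p = 0.0107), and the phosphate exporter PHO1 homolog 3-like contig (c30828_g1_i1) held 14.2 and 11.9 CPM in GUSi and 21.7 and 22.2 CPM in ERF1i (1.69-fold higher). Sulfur contigs had 1 higher and 2 lower of 50. Adenylylsulfate reductase (c9900_g1_i1), a key step of sulfate assimilation, held 109 and 113 CPM in GUSi and 184 and 234 CPM in ERF1i (1.89-fold higher), and a thiosulfate sulfurtransferase contig (c21296_g1_i1) held 28.7 and 8.53 CPM in GUSi and 0.991 and 2.38 CPM in ERF1i (11-fold lower), with GUSi lines far apart. Sugar transporters had 2 higher and 1 lower of 56, among them a sucrose transporter (c29723_g1_i1) with 52.1 and 42.1 CPM in GUSi and 89.3 and 95.3 CPM in ERF1i and a hexose transporter (c28499_g1_i1) with 78.5 and 86.2 CPM in GUSi and 50.1 and 60.1 CPM in ERF1i, which was lower. Without GUSi-9, 1 of these 12 calls remained (highest edgeR adjusted p = 0.142), 3 with GUSi-10 dropped (0.205), 10 without ERF1i-7 (0.0673), 10 without ERF1i-19 (0.0544) and 0 without either ERF2i library (0.126 and 0.127).

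Cell wall genes were called in both directions. Of 138 tested expansin, xyloglucan and cellulose contigs, 4 were higher and 10 (7.25%) lower, with a median log2 of −0.01, and of 88 pectin-modifying contigs 3 were higher and 3 lower. An expansin contig (c47842_g1_i1), a protein that loosens walls during growth, held 38.9 and 70.7 CPM in GUSi and 10.6 and 13.3 CPM in ERF1i (log2 difference −2.20, SE 0.30, edgeR adjusted p = 0.0194), and an endoglucanase 9 contig (c25246_g2_i1) held 8.98 and 9.67 CPM in GUSi and 2.75 and 1.35 CPM in ERF1i (log2 difference −2.18, SE 0.29, edgeR adjusted p = 0.0182). Among the higher contigs of that list were a cellulose synthase family member (c33232_g14_i1) with 109 and 137 CPM in GUSi and 279.6 and 307 CPM in ERF1i (2.38-fold higher) and a catalytic subunit A (c14465_g1_i1) with 9.77 and 13.01 CPM in GUSi and 25.8 and 30.3 CPM in ERF1i (2.46-fold higher). Pectate lyases, which cut pectin, were lower in both ERF1i lines, c2233_g1_i1 with 59.4 and 164 CPM in GUSi and 20.97 and 29.4 CPM in ERF1i and c20468_g1_i1 with 36.8 and 62.7 CPM in GUSi and 16.1 and 20.2 CPM in ERF1i. A family 28 glycoside hydrolase (c31753_g2_i1), the polygalacturonase family, was higher, with 15.02 and 18.3 CPM in GUSi and 40.6 and 28.6 CPM in ERF1i. Lignin and phenylpropanoid contigs, listed by annotation alone, had 3 higher and 1 lower of 99, and the 3 higher ones came from 2 assembly genes. A laccase contig (c30147_g1_i1), of enzymes that oxidise lignin monomers, held 5.89 and 10.1 CPM in GUSi and 29.4 and 59.7 CPM in ERF1i (log2 difference 2.48, SE 0.39, edgeR adjusted p = 0.0262), a 4-coumarate ligase-like 10 contig (c22627_g1_i1) held 429 and 465 CPM in GUSi and 1044 and 888 CPM in ERF1i (2.16-fold higher), and a hydroxycinnamoyltransferase contig (c15374_g1_i1), of a lignin precursor step, held 26.6 and 22.9 CPM in GUSi and 15.1 and 16.1 CPM in ERF1i (1.58-fold lower, adjusted p = 0.0615 in DESeq2). UDP-glucuronic acid decarboxylase (c22798_g2_i1), which makes the xylose donor for hemicellulose, held 279 and 267 CPM in GUSi and 447 and 574 CPM in ERF1i (1.87-fold higher). Of these 11 calls, 3 remained without GUSi-9 (highest edgeR adjusted p = 0.2), 3 with GUSi-10 dropped (0.135), 9 without ERF1i-7 (0.0673), 9 without ERF1i-19 (0.0631) and 0 without either ERF2i library (0.13 and 0.131).

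Enzymes of primary and specialised metabolism were called in both directions. A trehalose-phosphate synthase contig (c28586_g1_i1), of the family that makes a sugar signal, held 57.3 and 58.2 CPM in GUSi and 139 and 139 CPM in ERF1i (log2 difference 1.27, SE 0.10, edgeR adjusted p = 0.00783), phosphoenolpyruvate carboxykinase (c26750_g1_i3), an enzyme of sugar formation from organic acids, held 225 and 184 CPM in GUSi and 403 and 660.1 CPM in ERF1i (2.60-fold higher), and arginine decarboxylase (c26241_g1_i1), which starts polyamine synthesis, held 857 and 966 CPM in GUSi and 1748 and 1369 CPM in ERF1i (1.71-fold higher). Both ERF1i lines were above both GUSi lines in each. An isoaspartyl peptidase/L-asparaginase contig (c23241_g1_i1) fell, with 276 and 475 CPM in GUSi and 115 and 139 CPM in ERF1i (2.96-fold lower). Cytochromes P450 had 8 higher (3.45%) and 2 lower of 232, UDP-glycosyltransferases 7 (3.98%) and 2 of 176, glutathione S-transferases 5 (10.4%) and 0 of 48, 2-oxoglutarate-dependent dioxygenases 12 (10.8%) and 3 of 111, and flavonoid and anthocyanin contigs 6 (4.23%) and 2 of 142. Over all plant contigs, 2.66% were higher and 1.38% lower. The P450, glycosyltransferase and flavonoid shares lay near these and are no result about those families. The 12 higher dioxygenase contigs came from 7 assembly genes. The aldo-keto reductase YAKC contig (c32917_g1_i3) held 1202 and 1089 CPM in GUSi and 1985 and 2711 CPM in ERF1i, glutathione S-transferase 30 (c33421_g1_i1), a detoxification enzyme, held 137 and 127 CPM in GUSi and 225 and 224 CPM in ERF1i, and an isoflavone 2'-hydroxylase contig (c33473_g1_i1), a P450, held 69.1 and 79.99 CPM in GUSi and 241 and 176 CPM in ERF1i. These rose 2.05-fold, 1.70-fold and 2.80-fold. The anthocyanin 5-aromatic acyltransferase contig (c8965_g1_i1), which decorates anthocyanins, held 64.2 and 57.4 CPM in GUSi and 27.6 and 29.2 CPM in ERF1i (log2 difference −1.10, SE 0.11, edgeR adjusted p = 0.0099). A leucoanthocyanidin dioxygenase-like contig (c12519_g1_i1) held 0.862 and 0.995 CPM in GUSi and 6.10 and 10.9 CPM in ERF1i (log2 difference 3.18, SE 0.37, edgeR adjusted p = 0.0128), and a contig of the same dioxygenase family described as a homolog of 1-aminocyclopropane-1-carboxylate oxidase (c29135_g1_i1) held 36.6 and 27.1 CPM in GUSi and 15.5 and 15.5 CPM in ERF1i (2.05-fold lower). Calls that remained numbered 1 of 10 without GUSi-9 (highest edgeR adjusted p = 0.221), 3 with GUSi-10 dropped (0.197), 9 without ERF1i-7 (0.0594), 8 without ERF1i-19 (0.07) and 1 without either ERF2i library (0.125 and 0.126).

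The pathways that lead to strictosidine, the precursor of camptothecin, were read as FPKM (fragments scaled to contig length and library size), so that steps can be compared. None of the 13 contigs that the study assigned to the plastid MEP pathway was called in edgeR, with a median log2 of 0.12. The most read 1-deoxy-D-xylulose 5-phosphate synthase contig (DXS, c29996_g1_i1), its entry enzyme, held 233 and 142 FPKM in GUSi and 128 and 135 FPKM in ERF1i (log2 difference −0.44, SE 0.22, edgeR adjusted p = 0.302). Of 27 contigs assigned from geranyl diphosphate to strictosidine, 2 were higher and 0 lower, with a median of 0.09. Loganic acid methyltransferase (LAMT, c5842_g1_i1), which makes loganin, held 172 and 149 FPKM in GUSi and 252 and 254 FPKM in ERF1i (log2 difference 0.73, SE 0.13, edgeR adjusted p = 0.038). A 7-deoxyloganetic acid glucosyltransferase contig (7-DLGT, c18473_g1_i1), of the step that adds the glucose, held 30.7 and 24.4 FPKM in GUSi and 43.0 and 38.9 FPKM in ERF1i (log2 difference 0.64, SE 0.13, edgeR adjusted p = 0.0472). A further 7-DLGT contig (c22992_g2_i1) held 19.1 and 21.0 FPKM in GUSi and 10.1 and 12.5 FPKM in ERF1i (log2 difference −0.76, SE 0.17, edgeR adjusted p = 0.0593), so contigs annotated to this step lay on both sides. A 7-deoxyloganic acid hydroxylase-like contig (7-DLH, c4068_g1_i2) held 2.00 and 4.77 FPKM in GUSi and 11 and 9.15 FPKM in ERF1i (log2 difference 1.64, SE 0.35, edgeR adjusted p = 0.0517), while the more read 7-DLH contig c18879_g1_i1 held 58.8 and 68.6 FPKM in GUSi and 64.1 and 44.7 FPKM in ERF1i. Several other steps, at the entry and at the end of the route, had a log2 difference under 0.5 in size. Geraniol synthase (GES, c36701_g1_i1), the entry to iridoids, held 37.3 and 34.1 FPKM in GUSi and 44.3 and 24.1 FPKM in ERF1i. Secologanin synthase (SLS, c41889_g1_i1) held 622 and 571 FPKM in GUSi and 572 and 587 FPKM in ERF1i. Tryptophan decarboxylase (TDC, c28648_g1_i1), which makes tryptamine, held 619.7 and 459.5 FPKM in GUSi and 441 and 581 FPKM in ERF1i. Strictosidine synthase (STR, c47430_g1_i1), which joins tryptamine to secologanin, held 659.9 and 662 FPKM in GUSi and 779 and 641 FPKM in ERF1i (log2 difference 0.17, SE 0.21, edgeR adjusted p = 0.701), and geraniol 10-hydroxylase (G10H, c28312_g1_i1) held 143 and 124 FPKM in GUSi and 197 and 157 FPKM in ERF1i (log2 difference 0.48, SE 0.21, edgeR adjusted p = 0.267). Without GUSi-9, 0 of these 2 calls remained (highest edgeR adjusted p = 0.116), 0 with GUSi-10 dropped (0.185), 1 without ERF1i-7 (0.0653), 1 without ERF1i-19 (0.0547) and 0 without either ERF2i library (0.128 and 0.129).

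**Figure D3:**
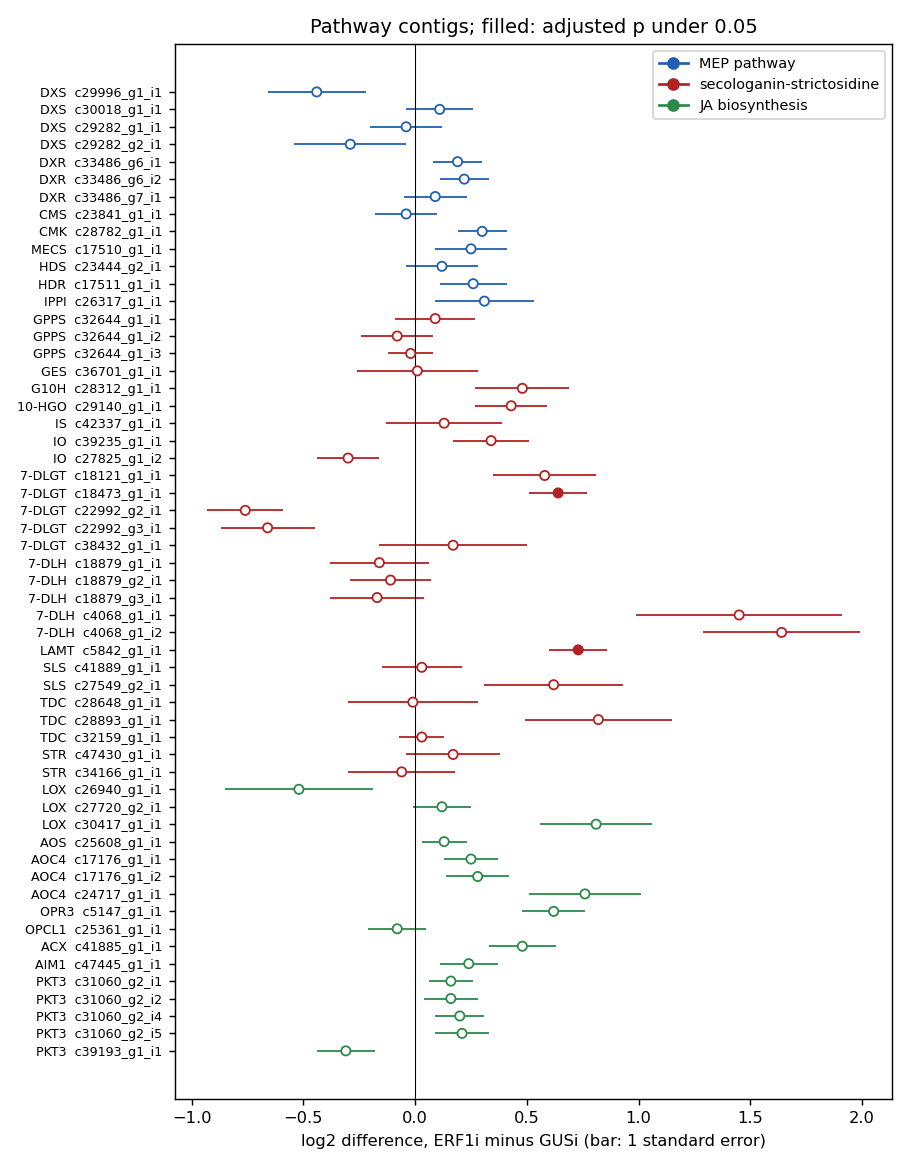
Log2 difference of ERF1i minus GUSi (x axis) with 1 standard error on each side, for the contigs the study assigned to the MEP pathway (13, blue), to the steps from geranyl diphosphate to strictosidine (27, red) and to jasmonic acid biosynthesis (16, green). The 2 filled points, LAMT at 0.73 and a 7-DLGT contig at 0.64, had an adjusted p under 0.05, and most of the open points lie within a log2 of 0.5 of 0.

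Each silenced line was also compared alone with the GUSi pair, in a fit of 4 groups in which a lone library is assumed to vary like the GUSi and ERF2i pairs. ERF1i-7 had 962 contigs higher (2.89%) and 355 lower (1.07%), and ERF1i-19 had 1671 higher (5.02%) and 1113 lower (3.34%), so the line with more *OpERF1* transcript had more calls. Whether the number of calls goes with the *OpERF1* level was not tested. Only 2 clones are compared, each by a lone library, and their *OpERF1* levels did not pass as different. Of the 885 contigs higher in the group comparison, 511 were higher in ERF1i-19 than in ERF1i-7, and of the 461 lower ones 278 were lower in ERF1i-19. Between the 2 lines, 48 contigs were higher (0.144%) and 49 lower (0.147%) in ERF1i-19, a comparison of 2 libraries rather than of conditions. The contigs named here that passed this test were all higher in ERF1i-19. CYP77A2-like (c42426_g1_i1) was at 4.19 CPM in ERF1i-7 and 21.9 CPM in ERF1i-19 (log2 difference 2.38, SE 0.28, edgeR adjusted p = 0.0294). The type-2 proteinase inhibitor (c44727_g1_i1) was at 97.5 and 244 CPM (1.32, SE 0.18, edgeR adjusted p = 0.0488), against 38.2 and 35.6 CPM in GUSi. Against GUSi, both contigs remained called without ERF1i-7 or ERF1i-19, and neither without GUSi-9 (highest adjusted p = 0.183), GUSi-10 (0.168) or either ERF2i library (0.113 and 0.114).

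Cytosolic ribosomal proteins had 1 higher and 0 lower of 163 tested contigs, the proteasome 0 and 0 of 60, and cell cycle genes 2 (0.637%) and 2 (0.637%) of 314. Histones and DNA replication genes had 0 higher and 2 lower of 96, RNA silencing genes, which process the hairpin, 0 and 1 of 52, and terpene synthases 0 and 0 of 63. Transposable elements had 3 higher and 1 lower of 137 tested contigs (435 in the assembly), LEA and dehydrin contigs 2 (6.25%) and 2 (6.25%) of 32, metal and iron contigs 2 and 2 of 123, protease inhibitors 1 and 1 of 24, ethylene synthesis and perception 1 and 1 of 41, and strictosidine synthase-like proteins and beta-glucosidases 1 and 1 of 75. The bars of calls per list set these beside the families above and the shares over all plant contigs.

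**Figure D4:**
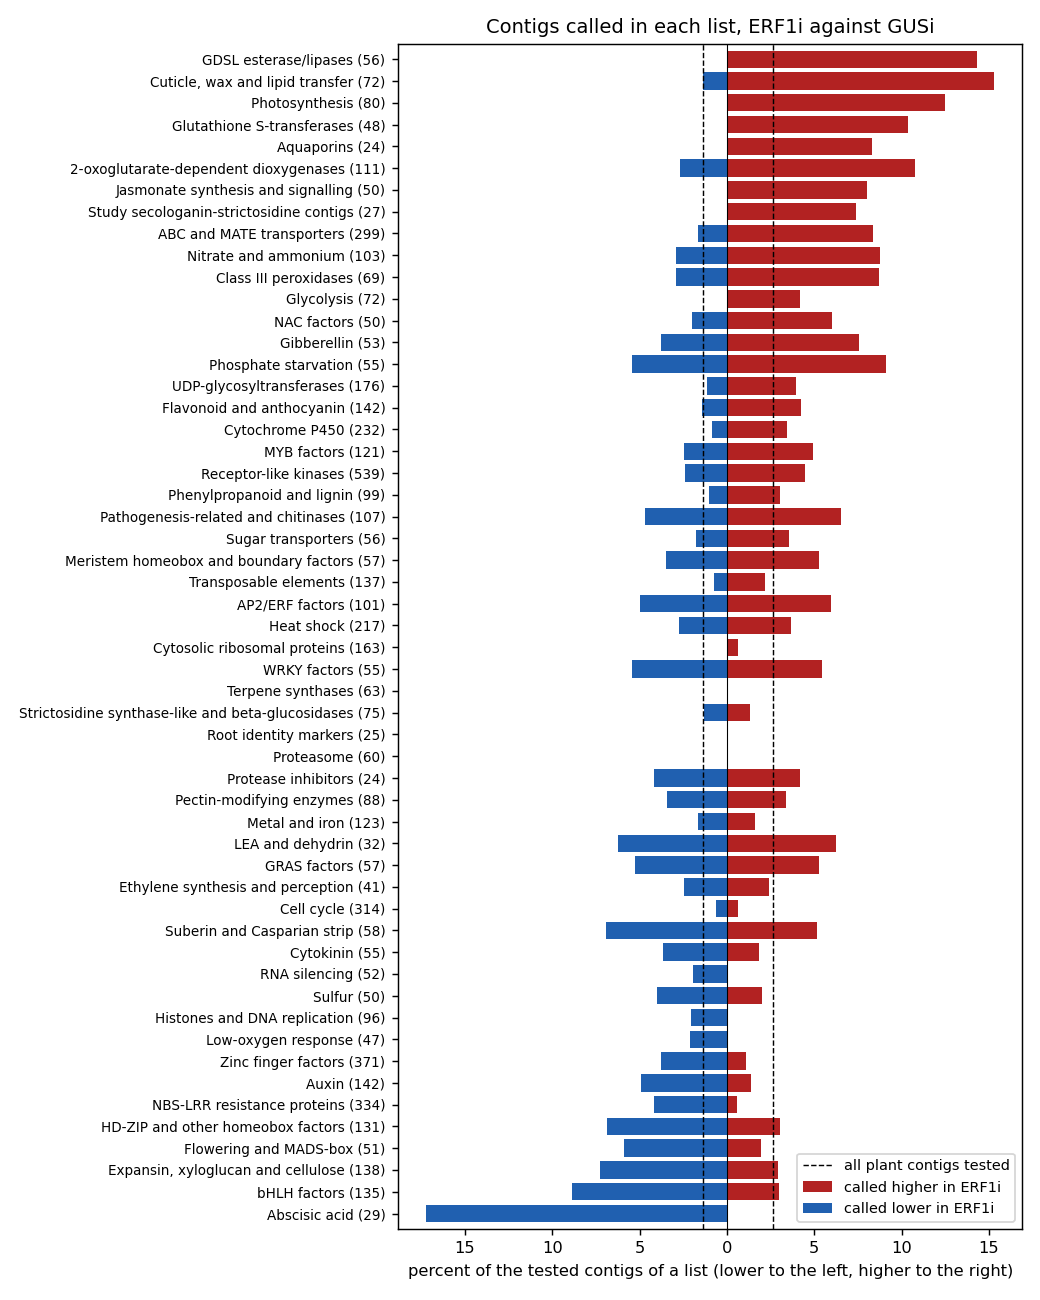
Percent of the tested contigs of each list that were higher (red, to the right) or lower (blue, to the left) in ERF1i, with the number tested in parentheses, for lists of 24 or more tested contigs. Dashed lines mark the 2.66% higher and 1.38% lower over all plant contigs tested, and cuticle, GDSL and photosynthesis lists reach furthest right and abscisic acid furthest left.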

How the data were processed

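RNA of 3-week-old hairy roots was sequenced by the authors as paired ends from strand-specific Illumina libraries. Per the submitters' processing notes and the study's methods, clean reads were aligned to a *de novo* assembly with Bowtie2 2.0 and levels estimated with RSEM, and the notes name DESeq. The RSEM version and whether counting used strand were not given in the sources used here. Each deposited library table lists expected counts, which are read pairs apportioned to contigs by RSEM, beside FPKM computed by the authors. An annotation table deposited with them adds descriptions and best hits, and its FPKM columns matched the library tables (0 columns without a match, 0 sample columns unused).

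Expected counts were rounded (1 value was not whole) and tested with edgeR 4.0.16 in R 4.3.3: TMM scaling, filterByExpr by group (minimum count 10, minimum total 15), a quasi-likelihood fit of all 6 libraries in 3 groups with 3 residual degrees of freedom, a biological coefficient of variation of 14.7%, and Benjamini-Hochberg adjustment over 33315 contigs. A contig was called at an adjusted p under 0.05. A fit of 4 groups gave each ERF1i line alone. The script was checked on simulated counts. FPKM were used for the pathway levels and, as log2(FPKM + 1), with limma 3.58.1. Other alternatives were DESeq2 1.42.0 (the tool the paper names), other scaling, no count filter, only the 4 ERF1i and GUSi libraries, counts per assembly gene, a log2 minimum of 1, T-DNA contigs left out before the fit, and each library left out. Tables and plots used Python 3.11.15 with pandas 2.3.3, scipy 1.17.1 and matplotlib 3.10.9.

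The 60 gene lists were drawn by pattern from descriptions and best hits, and their patterns were adjusted after seeing which contigs they matched. The comparison, the lists and the naming rule were chosen with earlier results of these data known. The rule named *OpERF1* and *OpERF2*. Among called contigs with at least 5 CPM on average in the higher group, both ERF1i libraries beyond both GUSi libraries and a known kind of protein, 1 per assembly gene, it named the 20 largest rises and falls, and in each direction the 10 with the lowest p and the 10 with the highest mean CPM. It also named up to 4 called members of each list, or up to 2 of the most read where none was called, and the study's pathway contigs. Part of these are given. Where GUSi had 0 counts, a bound against 3 counts over the group is given, and with 1 to 3 counts a ratio with its exact 95% interval, both from library totals without TMM and for counting error only. Contigs of 1 assembly gene share reads, so their counts are uncertain, and related genes were not separated further. No genome was used, so contigs are given by identifier.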

Additional observations from a re-analysis of the deposited data

Results flagged for a closer look

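A difference between the 2 ERF1i lines was tested for each contig in the fit of 4 groups, in which a lone library is assumed to vary like the GUSi and ERF2i pairs. Among the contigs named in the text, 6 that were higher in both lines than in GUSi also differed between the lines, each higher in ERF1i-19. Protodermal factor 2 (c29051_g1_i1) was higher in it by a log2 of 2.32 (SE 0.19, edgeR adjusted p = 0.00937), and the zinc finger contig (c15721_g1_i1) by 1.84 (SE 0.24, 0.0417). Epoxide hydrolase 2 (c41983_g1_i1) was higher by 2.41 (SE 0.25, 0.018) and MLP-like (c26256_g1_i1) by 2.50 (SE 0.23, 0.0116). CYP77A2-like (c42426_g1_i1) was higher by 2.38 (SE 0.28, 0.0294) and the type-2 proteinase inhibitor (c44727_g1_i1) by 1.32 (SE 0.18, 0.0488). Over all plant contigs, 48 were higher and 49 lower in ERF1i-19 than in ERF1i-7. *OpERF1* itself (c15284_g1_i1) was higher in ERF1i-19 by 2.44 (SE 0.37) without passing the test (0.0606).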

How the results depend on the processing

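Of the 136 called contigs with values in the text, 0 changed sign under the alternatives run, and of the 15 that were not called 5 did: *OpERF2* (c17706_g2_i1, −0.20) and 7-DLH (c18879_g1_i1, 0.08) without ERF1i-19, GES (c36701_g1_i1, −0.51 without ERF1i-7), TDC (c28648_g1_i1) and SLS (c41889_g1_i1). The groups of the called contigs did not overlap, so leaving out a library could not change their sign. Calls higher and lower numbered 885 and 461, 340 and 143 without a count filter, 23 and 6 with only the 4 ERF1i and GUSi libraries, 264 and 175 with limma-trend on FPKM, and 582 and 247 with a log2 of at least 1. With 1 library left out they ranged from 24 to 1716 higher and from 6 to 1168 lower, the smallest without an ERF2i library and the largest without ERF1i-7. DESeq2 also called 1216 of the 1346. The log2 of *OpERF1* stayed at −3.86 without a count filter and with only the 4 libraries and was −4.15 with limma-trend, in each no longer past the threshold, and with 1 library left out it ranged from −5.54 to −3.10, no longer past it without a GUSi or an ERF2i library. For ERF1i-7, 962 higher and 355 lower became 214 lower with DESeq2 and 219 lower with a log2 of at least 1, and with a GUSi or ERF2i library left out 604 to 881 higher and 252 to 298 lower. For ERF1i-19, 1671 higher and 1113 lower became 910 and 551 with DESeq2 and 666 lower with a log2 of at least 1. Between the lines, 48 higher and 49 lower became 93 and 137 with DESeq2 and 74 lower without scaling, and ranged from 49 to 83 higher and 48 to 89 lower with a library left out, the most without a GUSi library. In these, the cause was not tested. Fewer libraries leave fewer residual degrees of freedom, and with 1 line left in a group the difference between its lines no longer enters the spread. Calls that remained without ERF1i-7 or ERF1i-19 are therefore no test of the difference between these clones. Among the counts of each list in each direction, 120 in all, 46 moved by over 1.5 times with DESeq2, 83 with limma-trend, 92 without either ERF2i library, 88 and 87 without GUSi-9 or GUSi-10, 87 without ERF1i-7 and 44 without ERF1i-19. Low counts limit the contigs near 0 in GUSi, whose intervals span more than 10-fold. No paired analysis was possible because the clone numbers of the GUSi and ERF1i lines name separate clones and are not shared between the groups.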

Other observations

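Root barrier and desiccation genes were called in both directions. CASP-like contigs, related to the proteins that scaffold the Casparian strip, held 15.7 and 16.1 CPM in GUSi and 9.99 and 9.77 CPM in ERF1i (c39444_g1_i1, 1.61-fold lower) and 9.85 and 9.67 CPM in GUSi and 5.18 and 3.97 CPM in ERF1i (c75_g1_i2, 2.13-fold lower). Disease resistance response 206-like contigs, dirigent proteins that steer lignan coupling, went opposite ways, c4908_g1_i1 with 9.56 and 14.4 CPM in GUSi and 5.26 and 3.34 CPM in ERF1i (2.77-fold lower) and c6682_g1_i1 with 15.7 and 21.8 CPM in GUSi and 39.1 and 44.3 CPM in ERF1i (2.22-fold higher). A LEA14 homolog (c47375_g1_i1), a desiccation protectant, held 52.96 and 85.04 CPM in GUSi and 245 and 149 CPM in ERF1i (log2 difference 1.52, SE 0.28, edgeR adjusted p = 0.0391), while a hydroxyproline-rich LEA contig (c33655_g1_i4) held 14.3 and 15.5 CPM in GUSi and 4.65 and 4.77 CPM in ERF1i (log2 difference −1.66, SE 0.17, edgeR adjusted p = 0.0114). The ERF1i lines lay on 1 side of the GUSi lines in each. Of these 6 calls, 0 remained without GUSi-9 (highest edgeR adjusted p = 0.169), 0 with GUSi-10 dropped (0.151), 2 without ERF1i-19 (0.0689) and 0 without either ERF2i library (0.116 and 0.117), while all 6 remained without ERF1i-7.

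RNA-dependent RNA polymerase 1 (c29156_g4_i1), which copies RNA into double strands in silencing and antiviral defence, was the only called member of the 52 tested RNA silencing contigs and held 47.9 and 48.7 CPM in GUSi and 31.6 and 27.2 CPM in ERF1i (log2 difference −0.71, SE 0.11, edgeR adjusted p = 0.0254). Histone H1 (c18695_g1_i1) held 87.2 and 72.1 CPM in GUSi and 42.5 and 50.1 CPM in ERF1i (1.72-fold lower) and histone H3 (c12988_g1_i1) 41.4 and 44.7 CPM in GUSi and 27.8 and 21.7 CPM in ERF1i (1.74-fold lower). Vacuolar iron transporters, which store iron, differed in direction, c25848_g2_i2 with 90.9 and 91.01 CPM in GUSi and 146 and 189 CPM in ERF1i (1.84-fold higher) and the homolog 4-like contig c12600_g1_i1 with 29.8 and 30.3 CPM in GUSi and 16.01 and 18.8 CPM in ERF1i (1.72-fold lower). A heavy metal-associated isoprenylated protein contig (c26434_g2_i1) held 83.8 and 86.5 CPM in GUSi and 33.2 and 44.7 CPM in ERF1i (2.19-fold lower), a glycerol-3-phosphate transporter contig (c26834_g1_i1), of a family induced by phosphate starvation in Arabidopsis, held 56.2 and 38.5 CPM in GUSi and 20.1 and 17.95 CPM in ERF1i (2.49-fold lower), and a RAX3-like MYB contig (c31176_g1_i1), of regulators of axillary meristems in Arabidopsis, held 13.2 and 14.7 CPM in GUSi and 7.85 and 5.48 CPM in ERF1i (2.09-fold lower). Calls that remained numbered 0 of 8 without GUSi-9 (highest edgeR adjusted p = 0.176), 1 with GUSi-10 dropped (0.171), 7 without ERF1i-19 (0.0712) and 0 without either ERF2i library (0.105 and 0.106), while all 8 remained without ERF1i-7.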
